A study of Mus musculus with 2 samples.

Results

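Liver cells take glutamine and glutamate apart and rebuild them through a small set of enzymes, and 9 genes for these enzymes were followed here out of the 32285 genes in the count matrices. They were chosen by name for what they do, with earlier results of these data known. Gls2 encodes the liver-type glutaminase and Glud1 glutamate dehydrogenase. Got1 and Got2 encode the cytosolic and mitochondrial aspartate transaminases, and Gpt and Gpt2 the cytosolic and mitochondrial alanine transaminases. Gfpt1, Ppat and Cad encode the enzymes that spend glutamine nitrogen at the entry of hexosamine, purine and pyrimidine synthesis. For each gene the level was read in barcodes of 3 sizes, small (at least 200 and under 400 unique molecular identifiers, UMIs, each 1 counted RNA molecule), mid-sized (at least 500 and under 1000) and large (at least 1000), the level in the GS_KO library was set over that in the GFP control library, and the zonal side was read within each library. All 9 genes were in both matrices on 1 row each.

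The series holds 2 single-cell RNA libraries of mouse liver, each from 1 mouse. Both mice were 11 weeks old and Glul f/f, that is, with floxed alleles of glutamine synthetase, and neither carried tumours. The GS_KO mouse had been given the virus AAV8-Cre and the GFP control mouse AAV8-GFP, and livers were digested with collagenase II at 0.3 mg/mL 2 weeks later. The promoter that drives Cre and the part of Glul that is deleted are not given in the sources used here. Hepatocytes were loaded together with non-parenchymal cells, so neither library is a pure hepatocyte sample. The labels use the words for whole cells and for nuclei alike, and which of them entered the droplets is not known here.

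In the liver lobule, hepatocytes near the portal vein split glutamine with glutaminase and pass the ammonia to the urea cycle, while a thin layer of hepatocytes around the central vein makes glutamine with glutamine synthetase. Aminotransferases move nitrogen between glutamate, aspartate and alanine. The cytosolic and mitochondrial aspartate enzymes also form part of the malate-aspartate shuttle, and alanine transaminases tie alanine to pyruvate and so to glucose production. Glutamate dehydrogenase joins glutamate to the citric acid cycle with the release or capture of ammonia.

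The GS_KO matrix held 175937 barcodes and 57973740 UMIs, and the GFP control matrix 166037 barcodes and 61635695 UMIs. Small barcodes numbered 143687 in GS_KO and 116552 in the control, mid-sized ones 10037 and 11989, and large ones 1834 and 1703. Levels are given as CPM, UMIs of the gene per 1000000 UMIs summed over the barcodes of a size. The libraries differed in more than Glul. In large barcodes the nuclear RNA Malat1 stood at 37630 CPM in GS_KO and 19613 CPM in the control, and the mitochondrial share at 2.41% and 3.64%. The summed level of 12 Kupffer cell and macrophage markers was 717 CPM in GS_KO and 109 CPM in the control there, with 12 of 12 higher in GS_KO, and that of 8 lymphocyte and plasma cell markers 261 and 101 CPM, with 3 of 8 at 0 in the control. Endothelial markers summed to 98.2 CPM in GS_KO and 110 CPM in the control, stellate and fibroblast markers to 214 and 228 CPM, and 8 hepatocyte markers to 42664 and 46503 CPM. Of 4 cholangiocyte markers, 3 were at 0 in GS_KO and 4 in the control. Glul stood at 31.5 CPM in GS_KO and 124 CPM in the control. Barcode sequences found in both matrices numbered 8108 in all and 1 among barcodes large in both.

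Each group is 1 library of 1 mouse, so there is no test between conditions and no p-value. Intervals are exact 95% Poisson intervals for a level and the matching conditional intervals for a ratio, and all of them cover counting error only. Ratios are log2 of GS_KO over GFP control with 0.5 counts added to each sum. A gene is called past the threshold beyond 1.5-fold in either direction (0.585 on the log2 scale), where it had at least 20 UMIs in both libraries together. Fewer cells of a type and less RNA per cell cannot be told apart in such sums.

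Promoters are shown for Ppat, Got1 and Gpt2, the 3 enzymes furthest below the control in the large GS_KO barcodes, for Gfpt1, the one past 1.5-fold above it there, and for Paics, a neighbour of Ppat. Each window runs from 250 bases before to 50 bases after the start of the gene, 5′ to 3′ on the gene's strand, and was taken from RefSeq on GRCm38.p6. Windows were held for 7 of the 9 genes and not for Gls2 and Gpt. Capitals mark matches on either strand to 3 motifs: TGATGNAA, the composite site read by ATF4 with C/EBP factors in the amino acid response, CACGTG, the E-box, and CCAAT, the box bound by NF-Y.
Got1: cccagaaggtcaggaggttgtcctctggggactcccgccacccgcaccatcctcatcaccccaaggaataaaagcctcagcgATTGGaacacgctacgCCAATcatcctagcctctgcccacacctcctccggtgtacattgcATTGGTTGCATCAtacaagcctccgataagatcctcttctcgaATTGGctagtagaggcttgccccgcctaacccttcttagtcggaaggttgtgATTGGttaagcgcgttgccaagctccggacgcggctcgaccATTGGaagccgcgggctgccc
Gpt2: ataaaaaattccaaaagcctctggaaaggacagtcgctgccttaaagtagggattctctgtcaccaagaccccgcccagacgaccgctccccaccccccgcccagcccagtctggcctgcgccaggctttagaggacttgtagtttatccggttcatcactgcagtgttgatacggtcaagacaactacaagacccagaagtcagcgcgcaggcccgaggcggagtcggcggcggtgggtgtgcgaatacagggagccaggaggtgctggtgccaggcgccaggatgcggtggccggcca
Gfpt1: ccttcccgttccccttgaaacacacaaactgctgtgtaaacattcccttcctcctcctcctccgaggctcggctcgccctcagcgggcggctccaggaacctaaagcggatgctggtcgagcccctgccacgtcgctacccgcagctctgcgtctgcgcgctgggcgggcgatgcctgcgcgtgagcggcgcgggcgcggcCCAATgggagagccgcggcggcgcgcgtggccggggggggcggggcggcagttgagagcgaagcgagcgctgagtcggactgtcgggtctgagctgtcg
Ppat: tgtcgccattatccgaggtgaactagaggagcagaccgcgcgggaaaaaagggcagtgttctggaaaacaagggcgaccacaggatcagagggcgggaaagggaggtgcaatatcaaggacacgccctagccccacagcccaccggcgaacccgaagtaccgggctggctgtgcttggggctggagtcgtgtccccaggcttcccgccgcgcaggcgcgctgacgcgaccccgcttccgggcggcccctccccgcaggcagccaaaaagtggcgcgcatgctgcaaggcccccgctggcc
Paics: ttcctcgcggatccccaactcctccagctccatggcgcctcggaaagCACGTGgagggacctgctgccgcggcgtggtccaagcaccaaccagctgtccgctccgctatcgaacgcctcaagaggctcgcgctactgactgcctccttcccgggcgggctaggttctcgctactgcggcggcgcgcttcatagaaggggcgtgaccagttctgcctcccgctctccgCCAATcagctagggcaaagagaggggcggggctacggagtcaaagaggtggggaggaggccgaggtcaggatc

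TGATGNAA was found in 1 of the 7 windows, that of Got1, where it covers bases 149 to 156 on the reverse strand. It lies against 1 of 6 copies of CCAAT in the same window without sharing a base with it. TGATGNAA occurs in 3.97% of 32851 RefSeq windows of the same length, CACGTG in 7.15% and CCAAT in 37.4%, while 6 or more copies of CCAAT are held by 26 windows, 0.0791% of them. Gfpt1 has 1 CCAAT at bases 202 to 206. The windows of Gpt2 and Ppat, printed without capitals, and those of Glud1, Got2 and Cad hold none of the 3 motifs, and Paics has CACGTG at bases 48 to 53 and CCAAT at bases 228 to 232. These matches are letters in a window and not measured binding sites.

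Most of the enzymes stood lower in GS_KO. In large barcodes, 7 of the 8 genes with enough UMIs were lower in GS_KO, 5 of them past 1.5-fold (Ppat, Got1, Gpt2, Glud1 and Gpt), and 1, Gfpt1, was past 1.5-fold higher. Over all 10192 genes tested there, 15.1% were past 1.5-fold lower and 23.0% past 1.5-fold higher. The median log2 ratio of the enzymes was -0.75, against 0.04 for all genes. In mid-sized barcodes 4 of 9 enzymes were past 1.5-fold lower and 1 higher, beside 10.4% and 26.8% of 12349 genes, and the medians were -0.57 and 0.15. Scaling by TMM factors there moved all ratios by -0.18 and changed these shares of genes to 16.7% and 21.0%, with 6 enzymes past 1.5-fold lower. In small barcodes 2 of 9 were past 1.5-fold lower, Ppat and Got1, and 1 higher, Cad, beside 11.8% and 20.9% of 13688 genes, and the medians were -0.38 and -0.01. Over all barcodes of the libraries 2 enzymes were past 1.5-fold lower and the median was -0.39. With barcodes holding 2 or more UMIs of non-hepatocyte markers left out, 1461 GS_KO and 1531 control large barcodes remained, 5 enzymes were still past 1.5-fold lower, and the median was -0.75. The same step in mid-sized barcodes left 2 past 1.5-fold lower, with Glud1 at -0.55 and Gpt2 at -0.58, just inside the threshold. No share over all genes is given for the counts over all barcodes or with such barcodes left out, so these counts have no background beside them.

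**Figure D1:**
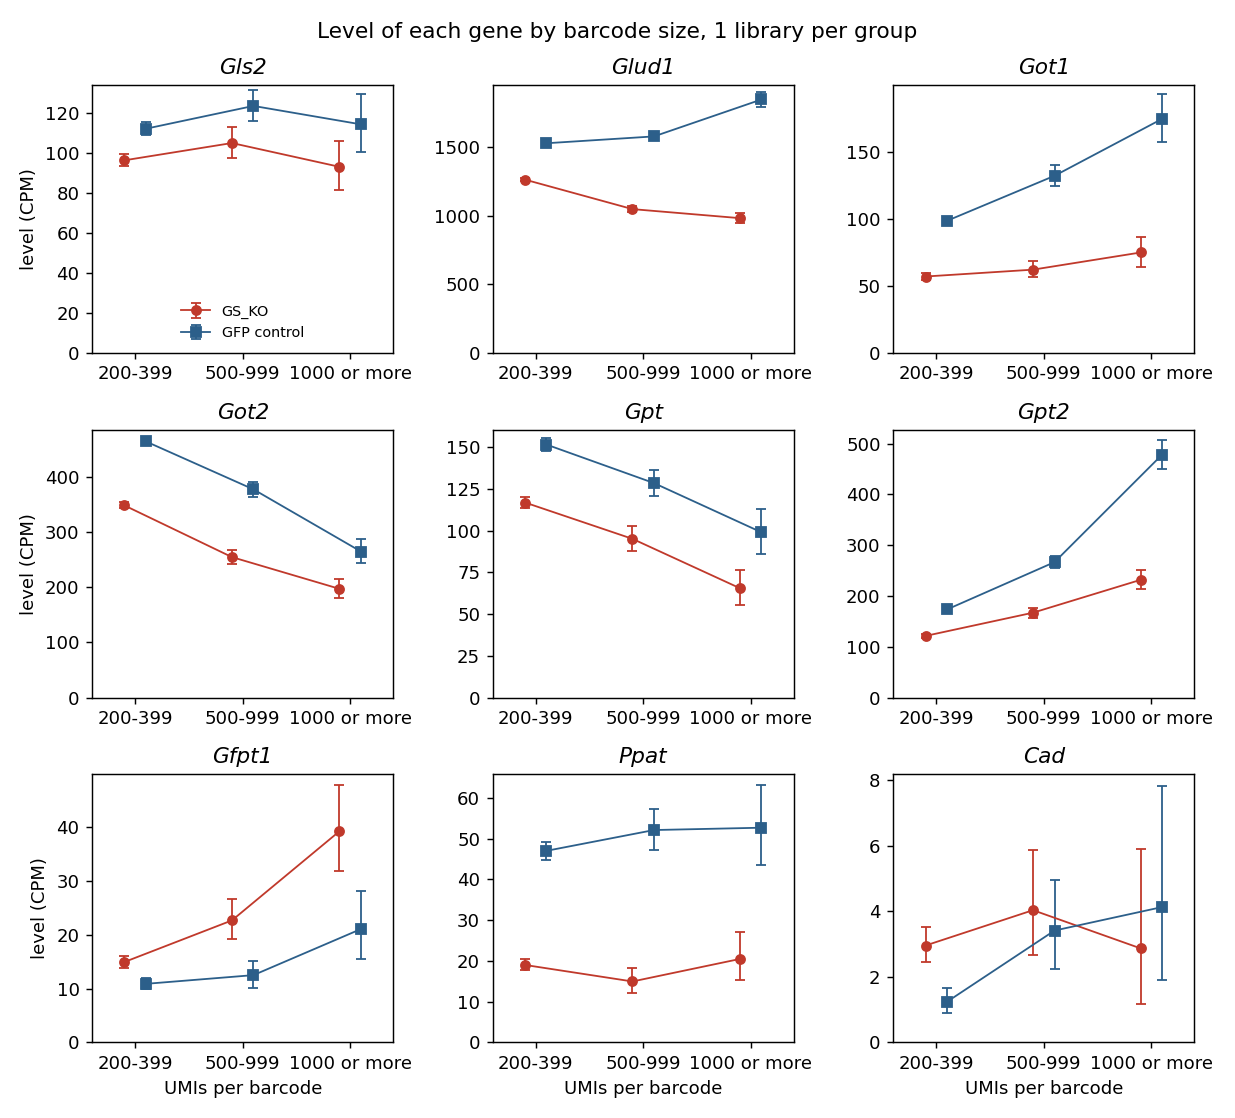
Level of each of the 9 genes (y axis, CPM, from 0) against barcode size in UMIs (x axis), with GS_KO as circles and GFP control as squares and exact 95% Poisson intervals as bars. Gls2, Glud1, Got1, Got2, Gpt, Gpt2 and Ppat lie lower in GS_KO in all 3 sizes and Gfpt1 higher, while the 2 libraries overlap for Cad in the larger barcodes.

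Gls2, the glutaminase that frees ammonia and glutamate from glutamine in hepatocyte mitochondria, differed little in the sums by barcode size. It lies on mm10 at chr10:128194457-128210004 on the plus strand, where Spryd4 overlaps it on the other strand, so reads of the shared stretch cannot be told apart for certain. In small, mid-sized and large barcodes it stood at 96.2, 105 and 92.9 CPM in GS_KO, against 112, 123 and 114 CPM in the control. All 3 control sums were above all 3 GS_KO sums, though the intervals of the libraries overlapped in the large barcodes. The log2 ratios were -0.22 (-0.28 to -0.16), -0.23 (-0.38 to -0.09) and -0.30 (-0.56 to -0.03), all within 1.5-fold. Among large barcodes with a Malat1 share from 1% to 3%, 526 in GS_KO and 1218 in the control, the ratio was 0.04, so its direction was not kept there.

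Glud1, which turns glutamate into 2-oxoglutarate and ammonia, was 1.88-fold lower in GS_KO in the large barcodes. The gene is at chr14:34310727-34345265, plus strand. In order of barcode size it had 1265, 1050 and 984 CPM in GS_KO, against 1531, 1581 and 1851 CPM in the control. The level was lower in larger GS_KO barcodes and higher in larger control barcodes, so the libraries were furthest apart in large barcodes. The log2 ratio was -0.28 (-0.29 to -0.26), -0.59 (-0.63 to -0.55) and -0.91 (-0.99 to -0.84) in order of size. It was past 1.5-fold in the 2 larger sizes, narrowly in mid-sized barcodes, and at -0.35 over all barcodes it was not.

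The aspartate transaminases differed to unequal extents. Got1, the cytosolic enzyme, lies at chr19:43499752-43524605 on the minus strand, and it had 57.0, 62.1 and 74.9 CPM in GS_KO in order of barcode size, against 98.6, 132 and 175 CPM in the control. The highest GS_KO sum was below the lowest control sum, and both libraries had more in larger barcodes. Its log2 ratio was -0.79 (-0.86 to -0.72), -1.09 (-1.26 to -0.92) and -1.22 (-1.48 to -0.96), the last being 2.33-fold lower on 183 GS_KO and 381 control UMIs. Got2, the mitochondrial enzyme, at chr8:95864134-95888547 on the minus strand, had 348, 254 and 197 CPM in GS_KO, against 464, 377 and 264 CPM in the control. Its order was the opposite, with less in larger barcodes of both libraries, and the highest GS_KO sum lay above the lowest control sum. The log2 ratios of Got2 were -0.41 (-0.45 to -0.38), -0.57 (-0.65 to -0.48) and -0.43 (-0.60 to -0.25), none past 1.5-fold.

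The alanine transaminases showed a similar split. Gpt2, the mitochondrial enzyme, lies at chr8:85492576-85527560 on the plus strand. It had 121, 167 and 232 CPM in GS_KO, against 173, 267 and 478 CPM in the control, and was higher in larger barcodes of both libraries. The log2 ratio was -0.52 (-0.57 to -0.46), -0.67 (-0.78 to -0.57) and -1.04 (-1.20 to -0.90), the last being 2.06-fold lower on 566 GS_KO and 1043 control UMIs. Over all barcodes it was -0.58, just within 1.5-fold. Gpt, the cytosolic enzyme, at chr15:76695716-76699686 on the plus strand, had 117, 95.1 and 65.5 CPM in GS_KO, against 152, 128 and 99.0 CPM in the control. Levels of Gpt were lower in larger barcodes of both libraries, and within each size the GS_KO interval was wholly below that of the control. Its log2 ratio was -0.38 (-0.43 to -0.32), -0.43 (-0.58 to -0.29) and -0.59 (-0.90 to -0.29). The last of these is 1.51-fold, at the edge of the threshold, on 160 GS_KO and 216 control UMIs.

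Gfpt1 stood higher in GS_KO in all 3 sizes, past 1.5-fold in mid-sized and large barcodes. It encodes the glutamine-fructose-6-phosphate transaminase that starts the hexosamine pathway, whose product is used in glycosylation, and lies at chr6:87042846-87092197 on the plus strand. It had 14.9, 22.7 and 39.3 CPM in GS_KO in order of barcode size, against 10.9, 12.5 and 21.1 CPM in the control. In each size the GS_KO interval lay above that of the control, and both libraries had more in larger barcodes. The log2 ratios were 0.46 (0.28 to 0.64), 0.86 (0.49 to 1.24) and 0.89 (0.38 to 1.44), the last being 1.85-fold higher on 96 GS_KO and 46 control UMIs. Gnpnat1, the next enzyme of that pathway, had 59.8 CPM in GS_KO and 77.9 CPM in the control in the large barcodes, a log2 ratio of -0.38.

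Ppat had the lowest library ratio of the 9 genes in all 3 sizes. It encodes the amidotransferase that commits phosphoribosyl pyrophosphate to purine synthesis with glutamine as the nitrogen donor, and lies at chr5:76913249-76951578 on the minus strand. It had 19.0, 14.9 and 20.5 CPM in GS_KO, against 47.0, 52.1 and 52.7 CPM in the control. Each control sum was more than 2-fold above each GS_KO sum, with little difference between sizes within a library. The log2 ratios were -1.31 (-1.43 to -1.19), -1.80 (-2.13 to -1.49) and -1.36 (-1.87 to -0.87), and the last is 2.56-fold on 50 GS_KO and 115 control UMIs. Ppat and Paics, which encodes a later enzyme of the same pathway at chr5:76951307-76967509 on the plus strand, are divergent genes that overlap at their annotated starts, which lie 271 bases apart. The sources used here do not give how strand was used in counting, so here too reads of the shared stretch may have been counted for either gene. Paics had 169, 121 and 78.6 CPM in GS_KO, against 300, 251 and 187 CPM in the control, with log2 ratios of -0.83, -1.05 and -1.25. Both genes of the pair were lower in GS_KO in every size, but Paics was lower in larger barcodes and Ppat was not.

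Cad was near the limit of counting. It encodes the fused enzyme that starts pyrimidine synthesis and lies at chr5:31054780-31078479 on the plus strand. In small barcodes it had 127 UMIs in GS_KO and 47 in the control, or 2.95 and 1.23 CPM, a log2 ratio of 1.25 (0.76 to 1.77). In mid-sized barcodes there were 27 UMIs in each library, and in large ones 7 in GS_KO and 9 in the control, too few to be called. The higher level in GS_KO was seen in the small barcodes, and a difference in the larger ones was not detectable at this depth. In mid-sized barcodes the interval of its log2 ratio ran from -0.58 to 1.07.

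**Figure D2:**
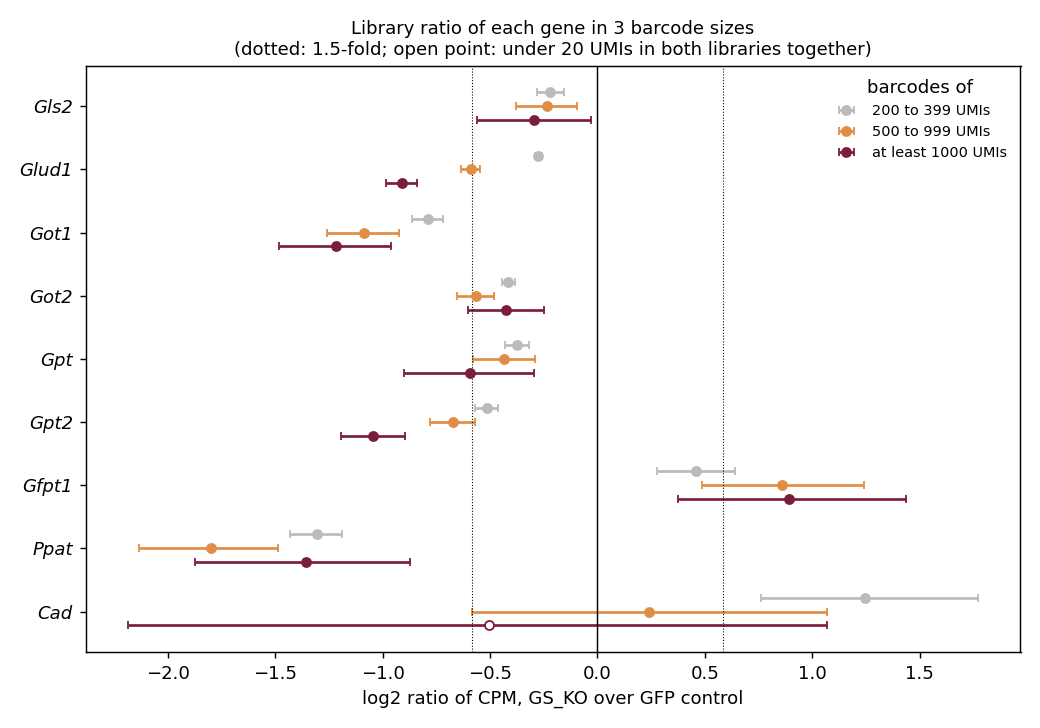
Log2 ratio of CPM, GS_KO over GFP control (x axis), for each of the 9 genes (rows) in barcodes of 3 sizes, with conditional 95% intervals as bars, dotted lines at 1.5-fold and an open point where the libraries together held under 20 UMIs. Ppat and Got1 lie past 1.5-fold lower in all 3 sizes, and Glud1 and Gpt2 move further below 0 as barcodes get larger, to -0.91 and -1.04.

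Small and large barcodes did not carry the enzymes in equal measure. Small barcodes held 74.2% of the UMIs in GS_KO and 61.8% in the control. The median over all barcodes was 304 UMIs in GS_KO and 352 in the control, so the middle barcode was itself small. Which barcodes hold a cell and which only free RNA was not tested. Within GS_KO, levels in large over those in small barcodes stood at log2 1.40 for Gfpt1, 0.93 for Gpt2 and 0.40 for Got1, and within the control at 0.97, 1.46 and 0.83. Got2 stood at -0.82 in GS_KO and -0.81 in the control, and Gpt at -0.83 and -0.61. Glud1 was the enzyme whose sign differed with both intervals clear of 0, at -0.36 (-0.42 to -0.30) in GS_KO and 0.27 (0.23 to 0.32) in the control. For comparison Malat1 stood at 4.79 in GS_KO and 3.52 in the control, and the albumin gene Alb at -1.49 and -0.96. Past 1.5-fold more in the large barcodes were 50.2% of genes in GS_KO and 46.2% in the control, and past 1.5-fold less 21.4% and 22.2%, so such differences were common. Large barcodes were therefore also compared at a Malat1 share from 1% to 3%. There the log2 library ratio of Ppat was -1.47, of Gpt2 -1.27, of Got1 -1.12, of Glud1 -0.96, of Got2 -0.62 and of Gpt -0.50, and that of Gfpt1 was 1.13. The 4 lowest were the same genes as without this match, while Got2 passed and Gpt left the 1.5-fold threshold.

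The other genes of the pathways around these enzymes were followed in 8 lists with 78 genes, of which 64 had enough UMIs in large barcodes. Of these 19 were past 1.5-fold lower in GS_KO and 8 past 1.5-fold higher, with a median log2 ratio of -0.16, beside 15.1% and 23.0% of all genes. The 19 include Glul, the gene targeted in the GS_KO mouse. The same shares stand beside each list count in large barcodes. Beside list counts in mid-sized barcodes stand 10.4% of genes past lower and 26.8% past higher, and in small barcodes 11.8% and 20.9%. The 2 lists that work beside the transaminases had the lowest medians there. Of 6 tested carriers and dehydrogenases of the malate-aspartate shuttle, which works with Got1 and Got2, 4 were past lower and 1 past higher, with a median of -0.69. In mid-sized barcodes 1 of 6 was past lower and 1 past higher, with a median of -0.45, and in small barcodes 1 past lower and 0 past higher, with a median of -0.34. Slc25a13, the liver aspartate-glutamate carrier, had 428 CPM in GS_KO and 977 CPM in the control (-1.19), Mdh1 317 and 515 CPM (-0.70), Mdh2 61.4 and 98.1 CPM (-0.67) and the 2-oxoglutarate carrier Slc25a11 18.0 and 32.1 CPM (-0.83). Slc25a12, the aspartate-glutamate carrier of other tissues, was the one past higher, at 47.1 CPM in GS_KO and 23.8 CPM in the control (0.97).

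Of 8 tested genes of alanine and pyruvate handling, which work on the products of Gpt and Gpt2, 4 were past lower and 0 past higher, with a median of -0.62. In mid-sized and small barcodes 4 and 3 were past lower, with medians of -0.62 and -0.42. Pklr, liver pyruvate kinase, had 40.1 CPM in GS_KO and 140 CPM in the control (-1.80), but in small barcodes it had 32.0 and 33.3 CPM (-0.06). The serine dehydratase gene Sds had 115 CPM in GS_KO and 237 CPM in the control (-1.05), and Mpc2, a subunit of the mitochondrial pyruvate carrier, 265 and 429 CPM (-0.69). Pcx, pyruvate carboxylase, was the one gene of the list that was higher in GS_KO, at 286 CPM against 210 CPM in the control (0.44).

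The pathways that Gfpt1, Ppat and Cad open were mixed. In the hexosamine list 1 of 8 tested genes was past lower and 0 past higher, with a median of -0.27, beside the 1.85-fold higher level of Gfpt1 itself. In mid-sized barcodes 1 of 9 was past lower and 2 past higher, with a median of 0.13, so the list had no steady direction. In purine synthesis 4 of 11 were past lower and 1 past higher, with a median of -0.16, and in mid-sized and small barcodes the medians were -0.09 and -0.01. Beside Paics those lower in large barcodes were Atic at 6.96 CPM in GS_KO and 15.1 CPM in the control, Prps1 at 4.50 and 11.5 CPM and Impdh2 at 11.9 and 22.4 CPM, each with under 100 UMIs. In pyrimidine synthesis 2 of 8 were past higher and 0 past lower, with a median of -0.10, and the medians in mid-sized and small barcodes were 0.03 and 0.08. One of them is Ctps2, which makes CTP with glutamine, at 29.5 CPM in GS_KO and 13.3 CPM in the control (1.13).

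Other transaminases and genes of glutamate turnover went both ways. Of 9 other transaminases 2 were past lower and 1 past higher, with a median of 0.19. In mid-sized barcodes the median was 0.04, and in small barcodes 7 of 9 were lower, 3 past 1.5-fold, with a median of -0.38, so the direction of this list turned with barcode size. Oat, ornithine aminotransferase and a known pericentral gene, had 35.6 CPM in GS_KO and 265 CPM in the control (-2.89, 95% interval -3.24 to -2.57), and Tat, tyrosine aminotransferase, 783 and 1658 CPM (-1.08). Agxt2, an alanine-glyoxylate aminotransferase, had 566 CPM in GS_KO and 194 CPM in the control (1.54). Of 10 genes of glutamate turnover 3 were past higher and 3 past lower, with a median of 0.16, and in mid-sized and small barcodes the medians were 0.07 and 0.03. Those higher were Hal and Ftcd of histidine breakdown, at log2 2.14 and 1.10, and Gclc, which joins glutamate to cysteine for glutathione, at 445 CPM in GS_KO and 195 CPM in the control (1.19). In small barcodes Gclc stood at -0.13. Of 9 tested genes of glutamine amide use and ammonia fixation, 2 were past lower, Glul and Cps1, and 2 past higher, with a median of -0.04, against -0.17 in mid-sized and 0.29 in small barcodes. Glul is the gene targeted in GS_KO, so its lower level follows from the design and is no result about the pathway. It is also among the genes of glutamate turnover counted as past lower. Cps1, the ammonia-fixing first enzyme of the urea cycle, had 3080 CPM in GS_KO and 9261 CPM in the control (-1.59), and in small barcodes 2073 and 2530 CPM (-0.29).

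Zonal side was then read within each library. Barcodes were ranked by a score of 15 pericentral genes, such as Cyp2e1, minus 16 periportal genes, such as Cyp2f2 and Alb. None of these genes is among the 9 enzymes. The highest 25% of barcodes (pericentral side) were set over the lowest 25% (periportal side). In barcodes of at least 500 UMIs a side held 2967 GS_KO and 3423 control barcodes. There 1 of 8 enzymes was past 1.5-fold toward the periportal side in each library, Gls2, beside 11.5% of genes in GS_KO and 5.59% in the control. Past 1.5-fold toward the pericentral side were 1 in GS_KO (Ppat) and 0 in the control, beside 25.6% and 13.0%. Gls2 had 66.1 CPM in pericentral and 125 CPM in periportal GS_KO barcodes (log2 -0.92, -1.21 to -0.63), and 99.8 and 151 CPM in those of the control (-0.60, -0.84 to -0.36). Genes of known side that were not in the score were parted unevenly. Slc1a2, a pericentral glutamate transporter, stood at 1.63 in GS_KO and 1.82 in the control, while Gldc, a periportal gene of glycine breakdown, stood at -0.44 and -1.18. Other known genes were parted little or went the other way: the pericentral gene Oat stood at 0.11 in GS_KO and 0.12 in the control, and the periportal genes Agxt at -0.13 and -0.18, Hpd at -0.16 and 0.00 and Cps1 at -0.16 and 0.21. Ftcd, another periportal gene, stood at -0.10 in GS_KO and -0.59 in the control. Rhbg, a pericentral ammonia channel, stood at -0.46 in GS_KO on 13 and 14 UMIs.

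Large barcodes, with 458 GS_KO and 425 control barcodes a side, were also read on their own, and most but not all of the known genes were parted more sharply there. Slc1a2 stood at log2 2.47 in GS_KO and 2.13 in the control there, Glul at 2.06 and 1.18, Gldc at -1.13 and -2.61 and Uroc1, of histidine breakdown, at -0.95 in both libraries. Ftcd stood at -0.78 in GS_KO and -1.20 in the control and Cps1 at -0.69 and -0.08. Oat, at 0.48 in GS_KO and 0.37 in the control, stayed within 1.5-fold, Agxt stood at -0.12 and -0.86, and Hpd at 0.14, away from its known side, and -0.21. The enzymes past 1.5-fold toward the periportal side were 3 of 8 in GS_KO (Gls2, Got1 and Gfpt1) and 2 of 7 in the control (Gls2 and Got1), beside 12.6% and 9.32% of genes. Toward the pericentral side there were 0 in GS_KO and 1 in the control (Ppat), beside 14.6% and 11.3%. In mid-sized barcodes alone 0 of 8 enzymes were past 1.5-fold periportal in either library, beside 6.83% of genes in GS_KO and 4.97% in the control, and 1 in GS_KO (Ppat) and 0 in the control past 1.5-fold pericentral, beside 13.1% and 7.83%. In small barcodes the sides were hardly parted, with Slc1a2 at 0.04 in GS_KO and 0.16 in the control and Gls2 at -0.06 and 0.01. There 0 of 9 enzymes in GS_KO and 1 in the control, Cad on 8 and 14 UMIs, were past 1.5-fold periportal, beside 2.66% and 3.02% of genes, and 0 in either library past 1.5-fold pericentral, beside 2.56% and 2.05%.

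Gls2 was the most periportal of the enzymes with enough UMIs in both libraries. In large barcodes it had 27.7 CPM in pericentral and 161 CPM in periportal GS_KO barcodes (18 and 90 UMIs), and 40.4 and 206 CPM in those of the control (22 and 107 UMIs). The log2 ratio was -2.51 (-3.36 to -1.80) in GS_KO and -2.33 (-3.09 to -1.68) in the control, that is, 5.70-fold and 5.02-fold more on the periportal side. With barcodes in 4 equal bins of the score, from periportal to pericentral, the level was 161, 126, 67.8 and 27.7 CPM in GS_KO and 206, 123, 91.6 and 40.4 CPM in the control, lower at each step in both. The library ratio of Gls2 was -0.54 (-1.53 to 0.42) on the pericentral and -0.35 on the periportal side, although sides are not matched between libraries. In barcodes of at least 500 UMIs it was -0.59 (-0.88 to -0.31) on the pericentral side, just past 1.5-fold, on 169 GS_KO and 256 control UMIs. On the periportal side it was -0.27 (-0.51 to -0.03) there.

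Got1 was periportal too, by a smaller margin. It had 41.5 CPM in pericentral and 87.8 CPM in periportal GS_KO barcodes (27 and 49 UMIs), a log2 ratio of -1.07 (-1.82 to -0.37), and 129 and 276 CPM in those of the control (70 and 143 UMIs), a ratio of -1.10 (-1.53 to -0.68). Over the 4 bins from periportal to pericentral it had 87.8, 99.8, 74.1 and 41.5 CPM in GS_KO and 276, 165, 136 and 129 CPM in the control. The pericentral bin was the lowest in GS_KO, with an interval that overlapped that of its neighbour, and the interval of the periportal bin in the control lay above those of the other 3. Its library ratio in large barcodes was -1.62 on the pericentral and -1.64 on the periportal side. In barcodes of at least 500 UMIs, which held more UMIs, it was -0.84 (-1.13 to -0.56) on the pericentral and -1.37 (-1.67 to -1.08) on the periportal side. With barcodes ranked on Cyp2e1 and Cyp2f2 alone, Got1 stood at -0.33 in the control, no longer past 1.5-fold, and in GS_KO barcodes of at least 500 UMIs it stood at -0.03.

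**Figure D3:**
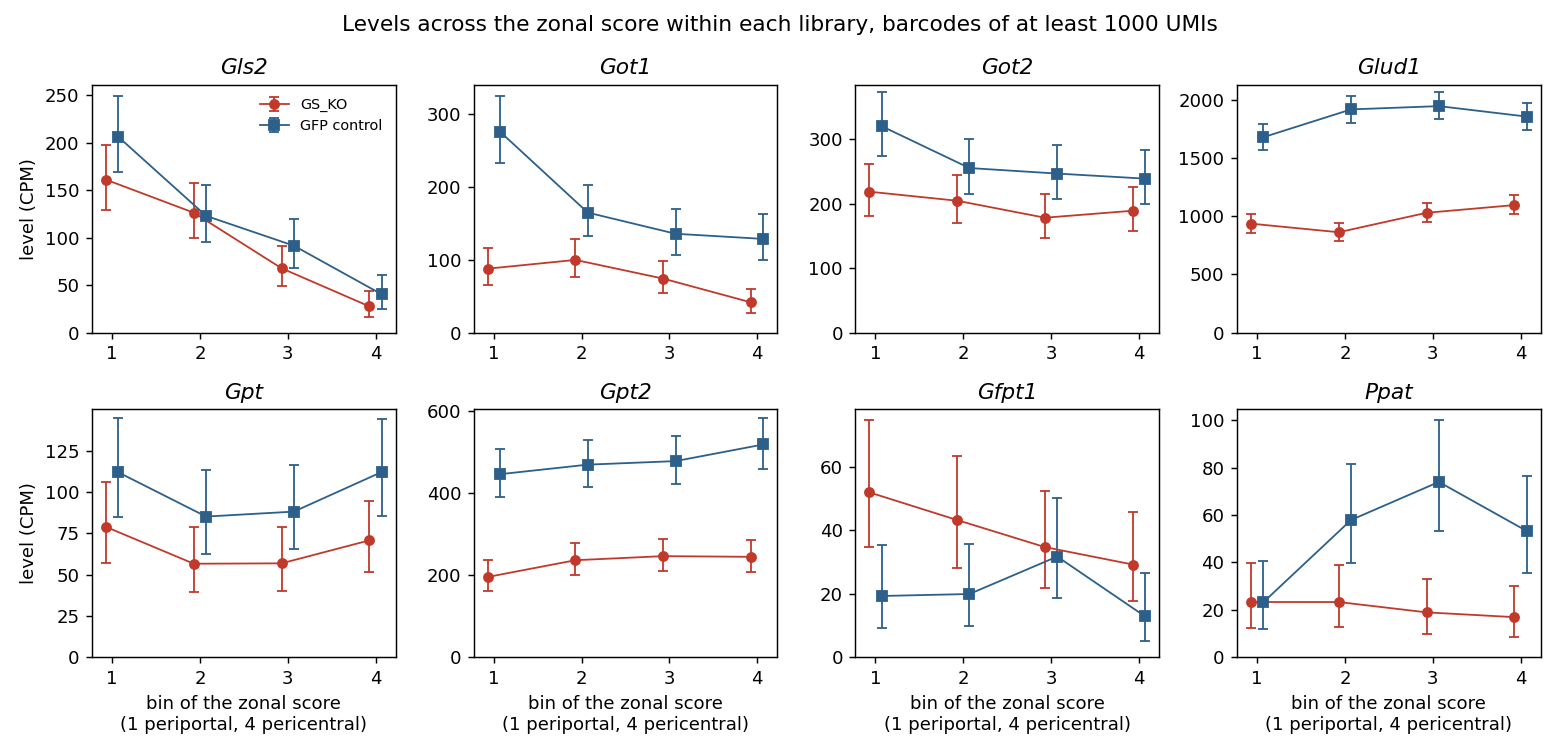
Level (y axis, CPM, from 0) of 8 of the enzymes in 4 equal bins of the zonal score (x axis, periportal to pericentral) in large barcodes, with GS_KO as circles, GFP control as squares and exact 95% Poisson intervals as bars. Gls2 is lower at each step in both libraries, to 27.7 CPM in GS_KO and 40.4 CPM in the control, while Glud1, Gpt and Gpt2 differ little across bins.

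Gpt, Got2, Glud1 and Gpt2 had little or no side. In large barcodes Gpt stood at log2 -0.16 in GS_KO and 0.00 in the control, and Got2 at -0.21 and -0.42 (-0.77 to -0.08). Glud1 stood at 0.23 (0.06 to 0.39) and 0.14 (0.01 to 0.28), and Gpt2 at 0.32 and 0.22, all within 1.5-fold. In barcodes of at least 500 UMIs Gpt2 leaned pericentral within 1.5-fold, at 0.40 (0.19 to 0.61) in GS_KO and 0.45 (0.30 to 0.61) in the control. Got2 stood there at -0.35 (-0.53 to -0.18) and 0.07 (-0.07 to 0.20). Across mid-sized control barcodes Got2 stood at 0.20 (0.05 to 0.34). Across the 4 bins from periportal to pericentral Glud1 had 935, 862, 1029 and 1095 CPM in GS_KO and 1677, 1916, 1944 and 1854 CPM in the control, so each GS_KO bin was below each control bin. For Gpt2 these levels were 195, 236, 246 and 244 CPM in GS_KO and 446, 469, 478 and 518 CPM in the control, again without overlap. The library ratios of Glud1 were -0.76 on the pericentral and -0.84 on the periportal side and those of Gpt2 -1.08 and -1.19, so the lower levels in GS_KO were found on both sides. Those of Got2 were -0.34 and -0.55 in large barcodes. In barcodes of at least 500 UMIs they were -0.86 (-1.01 to -0.71) on the pericentral and -0.44 (-0.59 to -0.28) on the periportal side.

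Gfpt1 and Ppat rested on few UMIs. Gfpt1 had 29.2 CPM in pericentral and 52.0 CPM in periportal GS_KO barcodes (19 and 29 UMIs), with an interval of the log2 ratio, -1.75 to 0.05, that reached 0. In the control it had 7 pericentral and 10 periportal UMIs, too few to be called. Its library ratio was 1.12 on the pericentral and 1.38 on the periportal side. Ppat had 11 pericentral and 13 periportal UMIs in GS_KO, a log2 ratio of -0.45 (-1.76 to 0.81), against 29 and 12 UMIs in the control, a ratio of 1.17 (0.19 to 2.31). In GS_KO the sign of Ppat was not settled: it stood at 0.66 in barcodes of at least 500 UMIs, where that made it past 1.5-fold pericentral, and between -0.98 and 1.16 over other ways of ranking large barcodes. Over the 4 bins it had 23.3, 23.3, 18.9 and 16.9 CPM in GS_KO and 23.2, 57.9, 74.0 and 53.3 CPM in the control. In large barcodes the library ratio of Ppat was -1.62 on the pericentral side and 0.00 on the periportal side, on 11 GS_KO and 29 control UMIs and on 13 and 12 UMIs. In barcodes of at least 500 UMIs, on 45 GS_KO and 142 control UMIs and on 22 and 107 UMIs, it was -1.64 (-2.17 to -1.16) and -2.06 (-2.82 to -1.41), so Ppat was lower in GS_KO on both sides there.

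**Figure D4:**
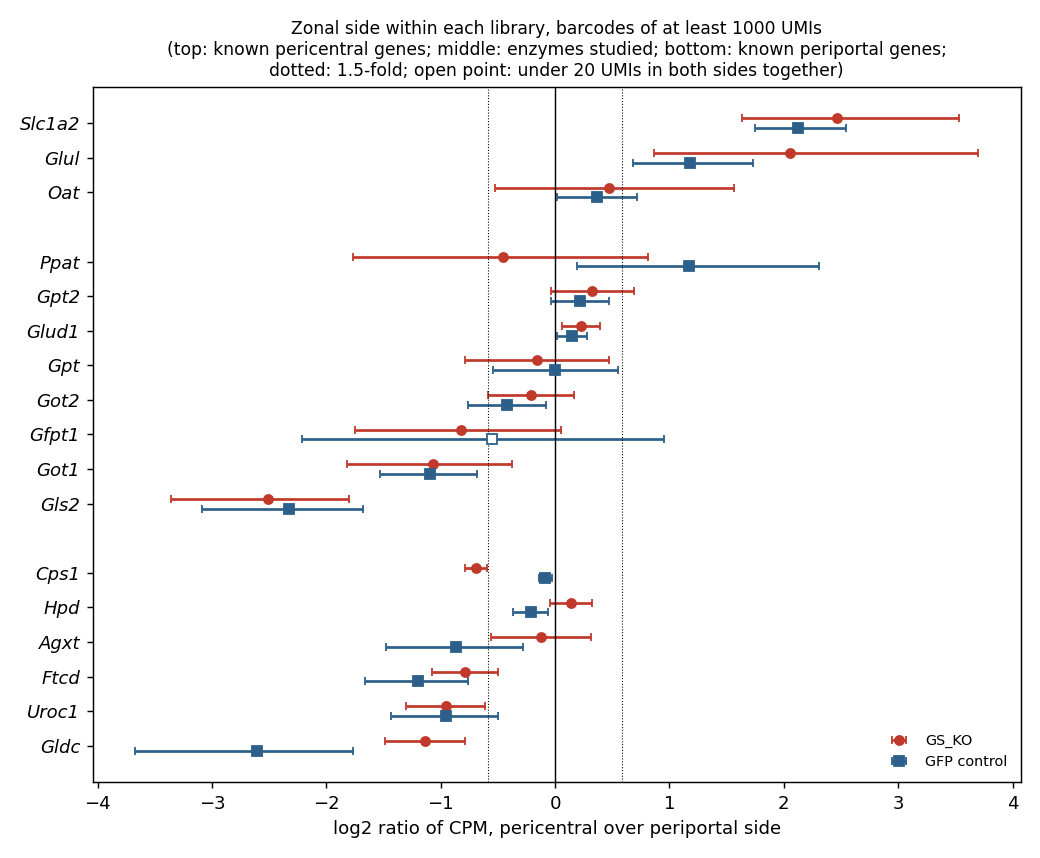
Log2 ratio of CPM, pericentral over periportal side (x axis), in large barcodes for known pericentral genes, 8 of the enzymes and known periportal genes (rows), with GS_KO as circles, GFP control as squares, conditional 95% intervals as bars and an open point where both sides together held under 20 UMIs. Gls2 lies at -2.51 in GS_KO and -2.33 in the control and Got1 near -1.07 and -1.10, while Glud1, Gpt and Gpt2 lie within the dotted 1.5-fold lines.

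The sides differed in more than position. In large barcodes the mitochondrial share was 1.97% on the pericentral and 3.13% on the periportal side of GS_KO, and 3.32% and 4.41% in the control. The non-hepatocyte markers summed to 882 CPM on the pericentral and 1620 CPM on the periportal side of GS_KO, and to 351 and 882 CPM in the control. Malat1 in large barcodes stood at 42285 CPM on the pericentral and 32374.5 CPM on the periportal side of GS_KO. In the control it stood at 20053 and 17409 CPM. In barcodes of at least 500 UMIs these levels were 29712 and 15301 CPM in GS_KO, and 10924 and 7566 CPM in the control. The part of these differences in the zonal ratios was not tested. With Alb left out of the score the mitochondrial shares came to 2.09% and 2.62% in GS_KO and 3.58% and 3.95% in the control, and Gls2 stood at -2.82 in GS_KO and -2.67 in the control, Got1 at -1.01 and -1.20.

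The genes whose levels over the 6 sums of library and barcode size were most like those of each enzyme were taken among 8913 genes, by the smallest root mean square distance of centred log2 CPM. For Got1 these were Angptl4, an inhibitor of lipoprotein lipase, and Klf15, a transcription factor of amino acid breakdown, at distances of 0.073 and 0.082. For Got2 they were Idh1 and Idh3b, both isocitrate dehydrogenase genes, at 0.039 and 0.043. The nearest were Zdhhc5 and Rpain for Gls2, Golph3 and Nsun2 for Glud1, Bola2 and Pabpc1 for Gpt, Plcg1 and Gm16157 for Gpt2 and Pxmp4 and Pcyt2 for Gfpt1. For Ppat they were Gm14403 and Fbxo31, and for Cad Manbal and Ythdf2. With 6 sums from 2 libraries such likeness is a description only.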

How the data were processed

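The files hold UMI counts per gene and barcode, which the authors deposited as 1 matrix per library, not normalized. Per the file headers the counts come from Cell Ranger 8.0.0, and per the submitters' processing notes the build was mm10. How strand was used and how barcodes were chosen are not given in the sources used here. Libraries were prepared as 5-prime libraries, per the labels' protocols.

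Counts were summed over small, mid-sized and large barcodes and scaled to CPM of those sums. The enzymes, gene lists and call rule were chosen with earlier results of these data known. All 9 enzymes are named. Of the other list genes, up to 5 most raised and 5 most lowered among those with at least 100 UMIs come from the naming rule, and further list genes were picked after their values were seen. With 1 library a group no test was made. The computation used scipy 1.17.1, numpy 2.4.6 and pandas 2.3.3 under Python 3.11.15, and edgeR 4.0.16 for TMM factors only. Steps across all genes were tested on simulated data. The zonal score divides the UMIs of each list by their library mean and by the barcode's total. Zonal values of large barcodes were made the basis of the text, and the score without Alb was added, after the data had been seen. Gene positions are from the GENCODE annotation of mm10. Doublets were not called. Alternatives were other scalings, other minimum UMIs, removal of free RNA or of barcodes with non-hepatocyte markers, and other zonal rankings.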

Additional observations from a re-analysis of the deposited data

How the results depend on the processing

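No paired analysis was possible because each group is 1 library of 1 mouse, so the shared replicate number pairs nothing and no replicate could be left out. Of 214 library ratios of single enzymes recomputed under other settings, 185 stayed within their counting interval and 29 did not, and of 247 zonal ratios 210 did, 36 did not and 1 that had been past 1.5-fold changed sign. That one is Ppat in GS_KO, at 0.66 in barcodes of at least 500 UMIs and -0.45 in large barcodes. The library ratios that stayed include those of settings that changed only the minimum UMIs. Such a setting cannot move the ratio of a single gene. The number of enzymes past 1.5-fold lower in large barcodes, 5, was 2 over all barcodes, with a median log2 ratio of -0.39. In mid-sized barcodes the number, 4, was 2 without barcodes that held 2 or more non-hepatocyte marker UMIs and 2 over all barcodes. It was 5 with free RNA removed, taken as the profile of small barcodes at the median UMIs of each library. Then Glud1 stood at -0.91, Got1 at -1.36, Got2 at -0.66, Gpt2 at -0.86 and Ppat at -2.32 in mid-sized barcodes, outside their counting intervals. The other enzymes stayed within theirs. There TMM factors shifted all ratios by -0.18 and a median of ratios set to 0 by -0.14. These gave 6 and 5, beside 16.7% and 15.2% of genes past 1.5-fold lower. No share over all genes is given for the counts over all barcodes, with free RNA removed or without barcodes of non-hepatocyte markers.

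The number past 1.5-fold periportal in barcodes of at least 500 UMIs, 1 in GS_KO, was 3 in large barcodes and 0 in mid-sized barcodes. In the control, also 1, it was 0 with all barcodes divided at the median score, 0 with Cyp2e1 and Cyp2f2 alone, 0 in mid-sized barcodes, and 2 in large barcodes, with the share among score genes and without Alb in the score. In the control in large barcodes, 2, it was 1 with Cyp2e1 and Cyp2f2 alone. Shares over all genes are given above by barcode size and not for other rankings, so counts under those have no background beside them. The zonal settings tried within large barcodes, and the score without Alb, were chosen after seeing the data. Over these settings Gls2 ranged from -3.17 to -1.58 in GS_KO and from -2.77 to -1.29 in the control. The cause of these differences was not tested. Depth limits Cad, Gfpt1 and Ppat most.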
